A study of Bos taurus with 29 samples.

Results

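The control corpus luteum is described here from 3 libraries of polyA RNA, labelled NC and numbered R2, R4 and R5 and called CL-NC below. They were 3 of the 12 corpus luteum libraries and of the 21 libraries of the series, which also holds endometrial explants, and they were chosen by their label alone. Of the 19112 rows of the corpus luteum count table, the 19075 nuclear ones were ranked and the 37 mitochondrial ones were counted apart. The tissue was bovine, from a slaughterhouse, and the labels give no breed, age or day of the cycle for this group. Its sample titles and columns also carry the label DMEN, and whether DMEN names a treatment or medium is not stated. The labels do not spell out NC, which is taken here as the control, nor what the R numbers mark. Nothing says that the libraries came from separate animals, so each SD measures the spread between these 3 libraries, which may be technical. R4 and R5 each come with a pair of sample titles and R2 with a single title, 5 samples in all for 3 columns.

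The corpus luteum is the gland that forms from the ovulated follicle and secretes progesterone. Its steroidogenic cells take up cholesterol from lipoproteins, STAR delivers it to the inner mitochondrial membrane, CYP11A1 cleaves its side chain to give pregnenolone, and HSD3B1 turns pregnenolone into progesterone. The gland is densely vascular, so endothelial cells and pericytes lie beside the luteal cells, with fibroblasts and immune cells between them. In cattle, luteinizing hormone maintains it through LHCGR, and prostaglandin F2α acting on PTGFR ends its life.

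The libraries held 20094411 counts in R2, 18850723 in R4 and 21725764 in R5. Mitochondrial rows took 55.9%, 44.4% and 57.9% of them, or 52.7% ± 7.30 (SD, n = 3), which left 8852305, 10483046 and 9149032 nuclear counts. Levels are given as CPM, counts scaled by TMM to a common library total, as mean ± SD over the 3 libraries unless each library is named. A CPM counts reads and is not corrected for transcript length, since no exon lengths were at hand, so a rank by CPM orders genes by their reads and not by their number of transcripts. A single count was worth about 0.05 CPM, and a count of 0 allows up to 0.150 CPM in R2, 0.138 in R4 and 0.157 in R5 (3 counts, counting error only). Of the 19075 nuclear rows, 10 had a mean of at least 1000 CPM and 859 of at least 100. A mean of at least 10 CPM was reached by 6807 and of at least 1 CPM by 15147. Counts of list members at these levels below stand beside these counts over all rows, most of which reached 1 CPM.

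The 5 genes given as markers of the gland had counts in every library. HSD3B1 was at 472 CPM in R2, 612 in R4 and 786 in R5, STAR at 161, 211 and 191 CPM, and LHCGR at 56.0, 67.2 and 185 CPM. The endothelial sialomucin EMCN was at 130, 364 and 237 CPM, and the collagen-binding proteoglycan LUM at 90.9, 47.7 and 78.4 CPM. Their ranks among the 19075 nuclear rows were 28 for HSD3B1, 167 for EMCN, 290 for STAR, 834 for LHCGR and 1278 for LUM. Luteal, vascular and stromal markers of the labelled tissue were thus present in all 3 libraries.

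By mean over the libraries, the nuclear rows with the most reads were an annotated pseudogene, non-coding RNAs and chaperones. The highest was LOC112444681, a row annotated as a pseudogene that neighbours the ribosomal RNA rows RN18S1 and LOC112444653 in the reference annotation, and whether its reads came from ribosomal RNA was not tested. It was at 25869 CPM in R2, 22280 in R4 and 41241 in R5, or 6.36% ± 2.05 of nuclear counts. RN18S1, the small-subunit ribosomal RNA, followed at 23209, 22615 and 32785 CPM, and LOC112444653 stood at rank 19. RN7SL1, the RNA scaffold of the signal recognition particle, was at 10019, 11976 and 10163 CPM and took 2.29% ± 0.182 of nuclear counts. These libraries are labelled polyA RNA, and the share of such rows in them was not tested against any other preparation. RMRP, the RNA of a ribonuclease that processes ribosomal RNA precursors, stood at rank 50 with 440 ± 140 CPM and was named after its value was seen.

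Molecular chaperones were prominent among the protein-coding genes of the 30 highest rows: 8 of the 30 came from the heat shock list, and 26 of the 30 were protein coding. HSPA1A, an inducible chaperone, was at 1034 CPM in R2, 9531 in R4 and 5462 in R5. HSP90AA1, which folds kinases and steroid receptors, was at 1778, 3742 and 3368 CPM, and the constitutive chaperone HSPA8 at 967, 2285 and 2261 CPM. R2 was the lowest library for each of these 3 genes, by most for HSPA1A. The co-chaperone DNAJB1 (260, 1246 and 940 CPM) and HSPA6 (70.5, 1037 and 989 CPM) were also lowest in R2. HSPH1, a nucleotide exchange factor for these chaperones, averaged 1257 ± 854 CPM. The endoplasmic reticulum chaperones HSPA5 and HSP90B1 averaged 613 ± 193 and 594 ± 106 CPM. Within R2, only HSP90AA1, HSPA1A and HSPA8 of the 8 were in the top 30, at ranks 5, 11 and 13. There HSP90B1, HSPA5, HSPH1, DNAJB1 and HSPA6 ranked 37, 46, 76, 166 and 1226. The coding genes with the most reads in R2 were FLT1, HSP90AA1 and SLC2A3, at ranks 4, 5 and 6. HSPA1A, HSPA6 and HSPA8 are close relatives in sequence, so reads may have been split between them or lost in counting, and their single values are uncertain.

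Other coding genes of the top 30 had varied roles. The cytoskeletal linkers DST and MACF1 averaged 1131 ± 977 and 824 ± 112 CPM, and DST was far higher in R5 (2255 CPM) than in R2 (481) and R4 (658). AHNAK, a very large scaffold protein, averaged 1092 ± 388 CPM, the actin ACTB 719 ± 118 CPM and the actin-binding CALD1 641 ± 287 CPM. PLCB1, a phospholipase C that acts downstream of Gq-coupled receptors, averaged 909 ± 128 CPM, and MAGI1, a scaffold of cell junctions, 840 ± 438 CPM. The transcription factor TCF4 (915 ± 438 CPM), the guidance receptor ROBO1 (664 ± 343), the adaptor APBB2 (653 ± 251) and the kelch protein IVNS1ABP (657 ± 198) were also among them. UBB, which encodes polyubiquitin, averaged 991 ± 378 CPM, SAT1, an enzyme of polyamine breakdown, 695 ± 40.7 CPM, and the ribosomal protein gene RPS3A 857 ± 336 CPM. LOC112442408, a protein-coding row with no gene name in the files or the reference, averaged 1631 ± 688 CPM.

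FLT1, SLC2A3 and HSD3B1 were the remaining members of the top 30. FLT1, a receptor for vascular endothelial growth factor, had 1892 CPM in R2, 458 in R4 and 466 in R5. The glucose transporter SLC2A3 had 1600, 285 and 167 CPM. For both, the mean therefore rested on R2, whereas HSD3B1 was lowest there. Just outside the 30 rows lay ARL15 (594 CPM) and SPTBN1 (553 CPM), and HSP90B1 was the last inside. Of the 30 rows, 13 were in the top 30 of every library, and 51 rows were in the top 30 of at least 1 library. The 30 rows held 20.7% ± 3.25 of nuclear counts, of which the first 4 held 15.4% ± 2.94.

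**Figure D1:**
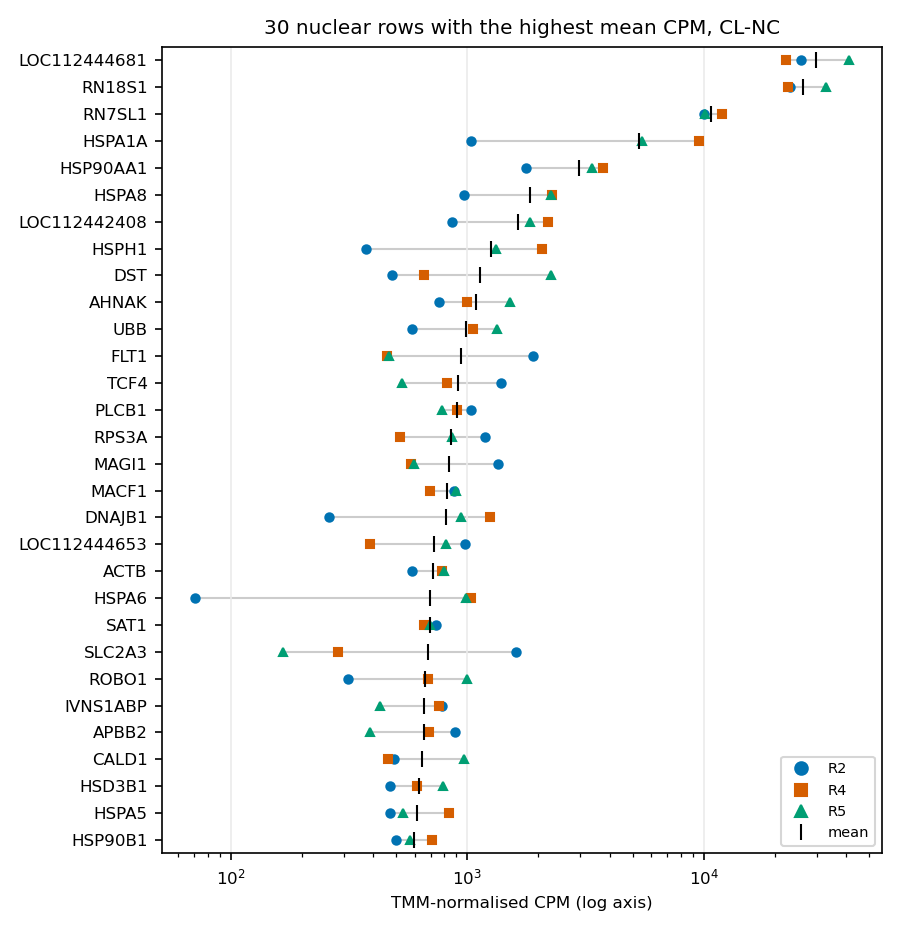
The 30 nuclear rows with the highest mean over the CL-NC libraries, with the TMM-normalised CPM of R2, R4 and R5 as symbols on a log axis and the mean as a bar. HSPA1A and HSPA6 lie lowest in R2, FLT1 and SLC2A3 highest in R2, and SAT1, MACF1 and ACTB are close together.

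The first 100 protein-coding genes by CPM mixed short and long genes, with a longer median span than all coding genes. HSPA1A spanned 2474 bases and HSPA8 4426 bases, while DST spanned 514523 and FLT1 205302 bases. The median genomic span of protein-coding genes, introns included, was 135 kb for the first 100, against 27.7 kb over all 15539 that had a span. Of the first 100, 53% spanned more than 100 kb, against 17.6% of all. The span is not the transcript length, and its part in the ranking was not tested.

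The steroidogenic pathway had 19 measured genes of 20 listed, of which 17 had a mean of at least 1 CPM, 12 of at least 10 and 4 of at least 100. The 4 were the genes for the steps from cholesterol to progesterone and the nuclear receptor NR5A2. CYP11A1 was at 315 CPM in R2, 291 in R4 and 239 in R5, or 282 ± 38.8 CPM (rank 124). STAR averaged 187 ± 25.1 CPM and HSD3B1 623 ± 158 CPM, so the 3 libraries lay close together for each of these. NR5A2, a transcription factor of ovarian steroidogenic genes, was at 107, 249 and 136 CPM. The electron carriers of CYP11A1 followed, with FDX1 (ferredoxin) at 74.1 ± 14.9 CPM and its reductase FDXR at 31.2 ± 11.8 CPM. NR5A1, steroidogenic factor, averaged 31.6 ± 15.5 CPM, and SOAT1, which esterifies cholesterol for storage, 44.0 ± 8.0 CPM. HSD17B1, which acts on estrogens, was at 1 count each in R4 and R5 and at 1.25 CPM in R2. The list summed to 1273, 1663 and 1682 CPM, of which HSD3B1 was 40.5%. The median of its member means was 19.7 CPM, against 4.83 CPM over all nuclear rows, a table from which rows with few counts had already been removed.

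Genes that take up and handle cholesterol were measured for 17 of 19 listed symbols, and all 17 had a mean of at least 1 CPM. SCARB1, the receptor for high-density lipoprotein, was at 274, 297 and 279 CPM, and the lipid-droplet protein PLIN2 at 344, 338 and 177 CPM. APOA1, the main protein of high-density lipoprotein, averaged 117 ± 32.5 CPM.

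Receptors through which the gland is regulated covered a wide range of CPM. PTGFR, the prostaglandin F2α receptor, was at 105 CPM in R2, 151 in R4 and 116 in R5. LHCGR, the luteinizing hormone receptor, averaged 103 ± 71.4 CPM, with R5 (185 CPM) well above the other libraries. The growth factor receptor IGF1R averaged 97.0 ± 66.1 CPM, INSR, the insulin receptor, 81.5 ± 1.88 CPM and the glucocorticoid receptor NR3C1 83.0 ± 8.32 CPM. The progesterone receptor PGR averaged 4.00 ± 1.55 CPM, whereas the membrane-associated PGRMC1 averaged 42.1 ± 13.9 CPM. The oxytocin receptor OXTR was at 2.91 CPM in R2, 0.92 in R4 and 0.105 in R5, the last under what a count of 0 allows. In all, 16 of 17 receptors reached a mean of 1 CPM and 12 reached 10 CPM.

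**Figure D2:**
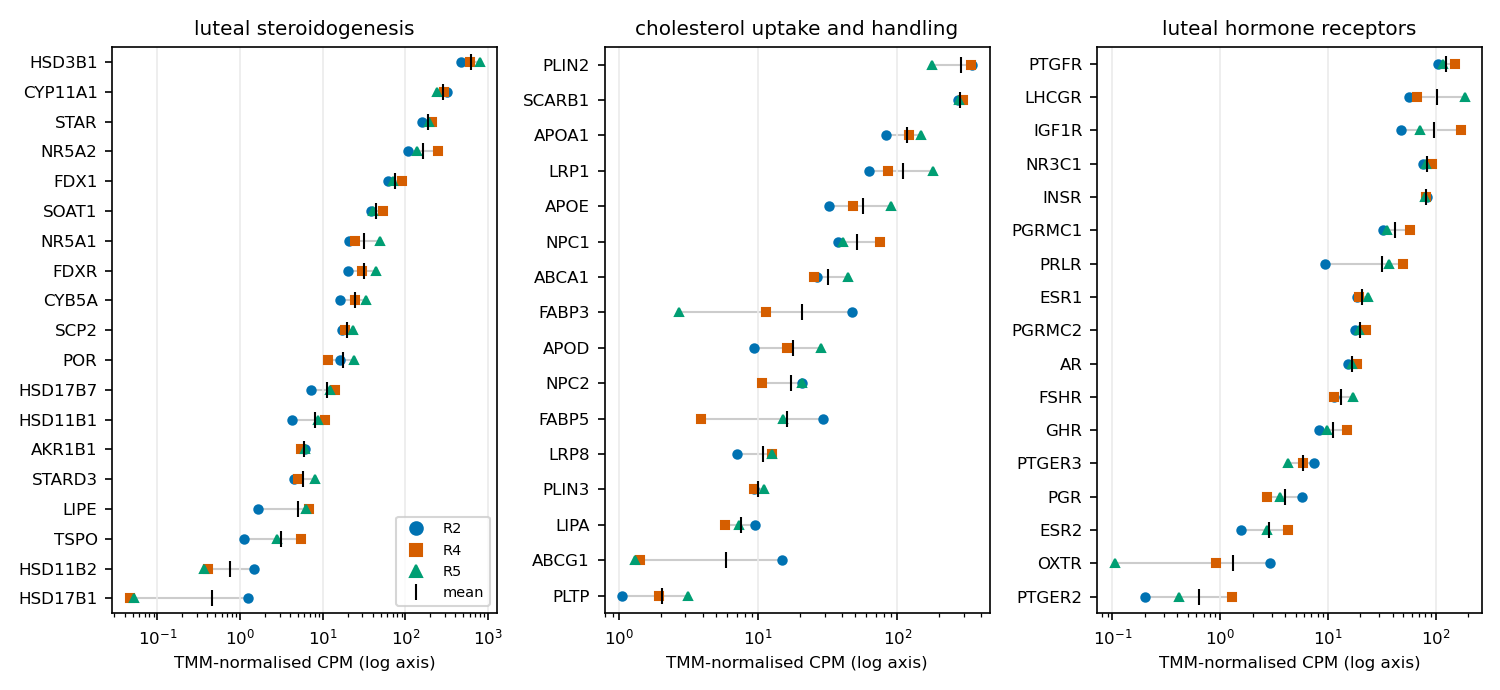
TMM-normalised CPM on a log axis of the genes reported here from luteal steroidogenesis, cholesterol handling and luteal hormone receptors, with a symbol for each CL-NC library and a bar for the mean. HSD3B1, CYP11A1 and STAR, SCARB1 and PTGFR lie within a narrow range over the libraries, while LHCGR and PRLR are spread.

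Genes for luteal secreted factors spread more between libraries than steroidogenic genes. Their median coefficient of variation was 0.576 over the 14 of 15 measured genes with a mean of at least 1 CPM. It was 0.325 over the 17 such genes of the steroidogenic list and 0.318 over all 15147 such nuclear genes. The steroidogenic genes thus spread about as much as nuclear genes in general. SPARC, a matrix-binding glycoprotein, was at 480, 296 and 273 CPM, IGF2 at 383, 255 and 110 CPM, and the chaperone-like CLU at 67.9, 174 and 181 CPM. IGFBP5, which binds insulin-like growth factors, averaged 66.4 ± 51.8 CPM. Oxytocin (OXT), which the bovine corpus luteum makes early in its life, was at 137 CPM in R2, 9.02 in R4 and 6.59 in R5. IGFBP3 had the same order, with 173, 7.22 and 3.09 CPM. For OXT and IGFBP3 R2 thus held most of the reads, and no day of the cycle was given that could be set beside them.

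Markers of follicular cells were measured as a check on the tissue. The aromatase gene CYP19A1, which granulosa cells use to make estrogen, averaged 2.89 ± 0.909 CPM, and FSHR, their gonadotropin receptor, 13.2 ± 3.20 CPM. INSL3, a theca product, was at 24.5, 9.20 and 67.5 CPM, SERPINE2 averaged 57.9 ± 29.8 CPM, and the ovarian transcription factors GATA4 and WT1 33.0 ± 13.8 and 29.7 ± 6.50 CPM. Of 9 measured members 8 reached a mean of 1 CPM, 5 reached 10 CPM and 0 reached 100 CPM.

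The endothelial list was measured in full, and 17 of its 18 genes had a mean of at least 10 CPM and 8 were among the 1000 highest rows. In bulk tissue, fewer cells of a type and less RNA per cell cannot be told apart, so these levels are not cell shares. KDR, the main signalling receptor for vascular endothelial growth factor, was at 480 CPM in R2, 446 in R4 and 483 in R5 (rank 45). ERG, an endothelial transcription factor, averaged 195 ± 49.4 CPM, ENG, a co-receptor for transforming growth factor β, 164 ± 41.3 CPM and CD34 107 ± 5.77 CPM. The junctional cadherin CDH5 was at 302, 85.9 and 89.9 CPM, VWF, the platelet-binding factor of endothelial granules, at 170, 46.9 and 74.3 CPM, and the tight-junction gene CLDN5 at 46.2, 3.45 and 5.23 CPM. FLT1, CDH5, VWF and CLDN5 were thus highest in R2, while KDR and CD34 hardly differed and EMCN was lowest in R2.

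By sum, the endothelial list was at 3890 CPM in R2, 2267 in R4 and 2277 in R5. Without FLT1, its highest member, the sums were 1998, 1809 and 1811 CPM, so most of the gap lay in that 1 gene. Among the 18 genes, R2 was the highest library for 7, R4 for 3 and R5 for 8. Over the 15147 nuclear genes with a mean of at least 1 CPM, R2 was highest for 32%, R4 for 33.3% and R5 for 34.7%.

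Lymphatic markers were lower in CPM and varied by library. PROX1, the transcription factor that sets lymphatic identity, was at 60.6, 40.2 and 65.4 CPM, FLT4 at 31.5, 16 and 32.2 CPM and RELN at 51.1, 10.8 and 35.9 CPM. MMRN1 was at 33.4, 2.94 and 32.3 CPM and CCL21, a lymphatic chemokine, at 24.7, 3.91 and 30 CPM. PDPN, named after its value was seen, had another order, at 8.02, 8.51 and 3.24 CPM. R2 was the highest library for 3 of the 7 genes, R4 for 1 and R5 for 3, where the shares over all nuclear genes were 32%, 33.3% and 34.7%. The list summed to 232, 97.1 and 217 CPM.

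The mural cell list was close between libraries in its sum but not in every member. Its median coefficient of variation was 0.403 over the 14 of its 15 genes with a mean of at least 1 CPM. For the 18 endothelial genes it was 0.304, and for all nuclear genes with a mean of at least 1 CPM 0.318. The pericyte gene RGS5 was at 216, 172 and 160 CPM, and PDGFRB, the receptor by which pericytes are recruited, at 61.6, 61.7 and 53.9 CPM. ABCC9, a channel subunit, was at 92.8, 62.0 and 22.7 CPM, and MYLK, the kinase of the smooth muscle myosin light chain, averaged 52.8 ± 16.1 CPM. The 15 genes summed to 577, 575 and 501 CPM, or 551 ± 43.2 CPM. Smooth muscle actin ACTA2 averaged 43.9 ± 17.9 CPM and the intermediate filament gene DES 0.329 ± 0.153 CPM, both named after their values were seen.

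Ligands of the vascular growth factor receptors were measured as a further list of 14 genes. PDGFC was at 178, 500 and 280 CPM and PDGFD at 110, 220 and 234 CPM, both ligands of platelet-derived growth factor receptors. The anti-angiogenic matrix proteins THBS1 and THBS2 averaged 147 ± 54.5 and 88.8 ± 45.7 CPM. VEGFA, a ligand of FLT1 and KDR, was at 94.3, 93.8 and 49.0 CPM and was named after its value was seen.

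The stromal list had 20 measured genes, of which 14 reached a mean of 10 CPM and 5 reached 100. COL4A1 and COL4A2, the basement membrane collagens that endothelial cells also make, were highest, at 714, 559 and 310 CPM and at 447, 334 and 240 CPM. The fibrillar collagen COL1A1 was at 189, 72.5 and 93.9 CPM, and FN1, fibronectin, at 136, 139 and 72.7 CPM. LUM averaged 72.4 ± 22.2 CPM, while COL3A1 (202, 54.9 and 68.6 CPM) and the proteoglycan DCN (52.9, 32.4 and 24.3 CPM) were named after their values were seen. R2 was the highest library for 15 of the 18 genes with a mean of at least 1 CPM, against 32% of all such nuclear genes. The list summed to 2370, 1482 and 1215 CPM, and to 1209, 589 and 665 CPM without the COL4A1 and COL4A2 pair.

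**Figure D3:**
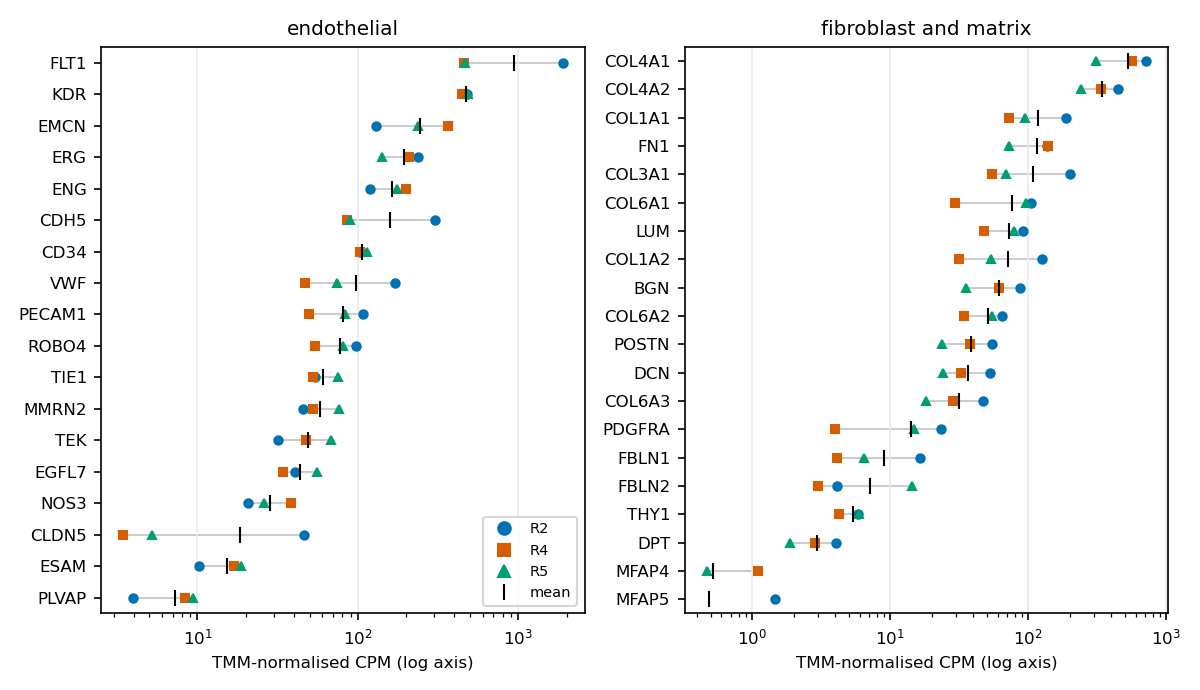
TMM-normalised CPM on a log axis of the endothelial genes and of the stromal and matrix genes, with a symbol for each CL-NC library and a bar for the mean. FLT1, CDH5, VWF and CLDN5 stand highest in R2, KDR and CD34 coincide, and R2 is the rightmost symbol for most collagens. MFAP4 in R2 and MFAP5 in R4 and R5 had 0 counts and are not drawn.

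Immune markers drew few reads. Of 16 measured genes of macrophages and monocytes, 12 had a mean of at least 1 CPM and 0 of at least 10. Of all 19075 nuclear rows, 15147 reached 1 CPM and 6807 reached 10 CPM. The mannose receptor MRC1 was at 7.92, 4.65 and 7.84 CPM, CSF1R, the receptor that macrophages need to survive, at 3.56, 6.53 and 5.33 CPM, and the lysosomal CD68 at 2.71, 4.83 and 5.02 CPM. The scavenger receptor CD163 averaged 3.72 ± 1.08 CPM. The 16 genes summed to 40.8, 32.4 and 37.1 CPM.

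T and NK cell genes also drew few reads. The T cell kinase LCK averaged 4.40 ± 1.73 CPM, the receptor chain CD247 3.80 ± 1.21 CPM, the chemokine CCL5 2.74 ± 2.42 CPM and the kinase ZAP70 2.04 ± 1.65 CPM. Of 19 genes 9 reached a mean of 1 CPM and 0 reached 10 CPM, and the list summed to 29.6, 20.2 and 28.4 CPM. GZMB, a cytotoxic protease, had 0 counts in R2 and R4 and 6 in R5.

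Single genes carried the sums of 2 immune lists. XBP1, a transcription factor of plasma cells that secretory cells also use in the unfolded protein response, was at 139, 229 and 245 CPM and made up 96.3% of the B and plasma cell sum. The other 8 genes of that list summed to 12.8, 3.82 and 7.01 CPM, with the B cell factor PAX5 at 3.03 ± 3.62 CPM. KIT, the stem cell factor receptor of mast cells that ovarian cells are also known to carry, was at 297, 186 and 120 CPM and made up 98.6% of the granulocyte and mast cell sum. The mast cell protease CPA3 had 28 counts in R2, 0 in R4 and 1 in R5, and the IgE receptor subunit MS4A2 had 10, 11 and 0. The means of both were under 1 CPM.

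Antigen presentation genes were measured for 11 of 12 listed symbols, of which 3 had a mean of at least 10 CPM. CD74, the invariant chain of MHC class II, was at 40.9, 39.8 and 90.0 CPM, BOLA-DRB3 at 13.0, 10.9 and 26.9 CPM and BOLA-DRA at 14.2, 7.96 and 21.4 CPM. CIITA, which switches on class II genes, averaged 9.81 ± 3.26 CPM. R5 was the highest library for 6 of the 8 genes of that list with a mean of at least 1 CPM, where 34.7% of all such nuclear genes were highest in R5. BOLA-DRB3 is polymorphic and has relatives in the same family, so its value is uncertain.

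Markers of unrelated tissues and of other cells that a gland sample could carry were summed as well. The lists differ in their number of genes, so these sums set no scale for the others. The 9 measured markers of unrelated tissues summed to 14.5, 17.1 and 11.3 CPM, of which the synaptic gene SNAP25 was 65.1%, with the muscle myosins MYH6 and MYH1 and the synaptic SYP between 0.693 and 1.52 CPM. Epithelial and mesothelial genes summed to 37.1, 31.2 and 19.9 CPM, led by KRT8 at 12.4 ± 5.04 CPM and CALB2 at 6.2 ± 1.0 CPM, and EPCAM had 0 counts in R4 and R5. Hemoglobin genes were at 19.6, 1.15 and 1.20 CPM for HBA and at 19.7, 0.782 and 1.20 CPM for HBA1, a pair of near-identical copies between which reads cannot be assigned with certainty. Both were highest in R2, where the 8 red cell genes summed to 44.1 CPM, with 4.42 in R4 and 5.80 in R5, but HBB, the beta chain, was lowest there, at 0.0502, 1.06 and 1.73 CPM.

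**Figure D4:**
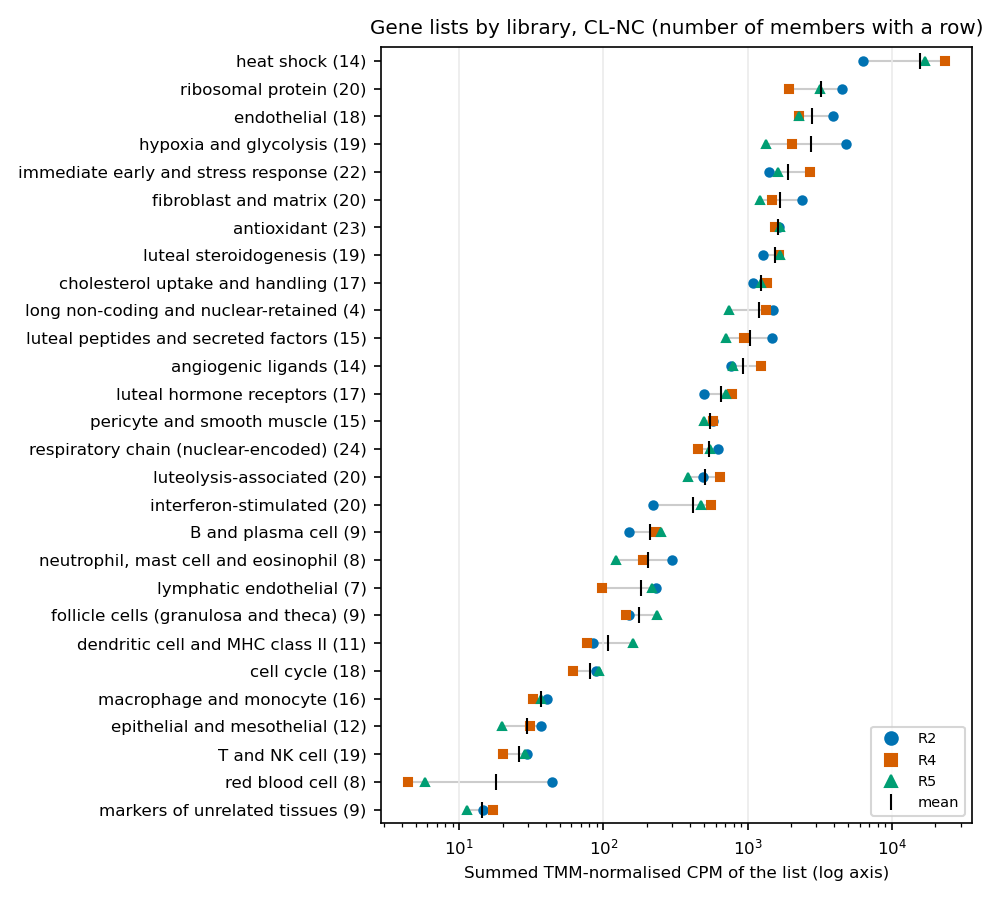
Summed TMM-normalised CPM of each gene list on a log axis, with a symbol for each CL-NC library and a bar for the mean, and the number of measured members in brackets. Sums depend on how many genes a list has and on their lengths, so lists are not on a common scale. Heat shock, hypoxia and red blood cell sums are spread between libraries, while antioxidant and pericyte sums are close together.

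How far the 3 libraries lay apart differed by list. The highest library sum over the lowest was 3.70 for the heat shock list, 3.62 for hypoxia and glycolysis, 2.08 for luteal secreted factors, 1.93 for immediate early genes, 1.55 for luteal receptors, 1.32 for steroidogenesis and 1.09 for antioxidant genes. Each library is a single column of counts, so no difference between libraries was tested. Pearson correlations of log2(CPM + 1) over 15147 genes were 0.938 for R4 with R5, 0.894 for R2 with R4 and 0.892 for R2 with R5. These are correlations across genes, and genes are not independent replicates. The biological coefficient of variation of edgeR was 0.521 over the 3 libraries and 0.40 without R2. A range of at least 5-fold between the highest and the lowest library was found for 219 of 6807 genes with a mean of at least 10 CPM, or 3.22%. The number was 55 without R2, 148 without R4 and 154 without R5, and a range over fewer libraries is never wider. Of the 219, R2 was the highest library for 120, R4 for 62 and R5 for 37. R2 was the lowest for 59, R4 for 71 and R5 for 89. Of all nuclear genes with a mean of at least 1 CPM, 32%, 33.3% and 34.7% were highest in R2, R4 and R5. The 219 were picked by these same values, so their counts only describe them.

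Genes of hypoxia and glycolysis were higher in R2 than in R4 and R5. R2 was the highest library for 15 of the 18 genes with a mean of at least 1 CPM, and the median over these genes of the log2 difference of R2 from the mean of the other libraries was 1.32, against -0.10 over all nuclear genes. LDHA, which turns pyruvate into lactate, was at 308 CPM in R2, 43.4 in R4 and 22.4 in R5 and was named after its value was seen. NDRG1, a hypoxia-induced gene, was at 824, 182 and 80.2 CPM, and GAPDH, a glycolytic enzyme, at 558, 144 and 141 CPM. EPAS1, the hypoxia-inducible factor of endothelial cells, went the other way, with 322, 679 and 430 CPM. VEGFA was nearly equal in R2 and R4.

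Heat shock and immediate early genes were higher in R4. R4 was the highest library for 12 of 14 heat shock genes and for 19 of 22 immediate early genes, against 33.3% of all nuclear genes with a mean of at least 1 CPM, and R2 was the highest for 0 of 14 and 1 of 22. The immediate early transcription factors FOS and JUN were at 86.7, 268 and 109 CPM and at 141, 304 and 276 CPM, and ZFP36, which destabilises messenger RNAs, at 211, 329 and 221 CPM. The phosphatase gene DUSP1 averaged 181 ± 47.3 CPM. The heat shock list summed to 6343 CPM in R2, 23444 in R4 and 17104 in R5.

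Interferon-stimulated genes were lower in R2. MX1, an antiviral GTPase, was at 17.2 CPM in R2, 113 in R4 and 87.9 in R5, IFI6 at 6.17, 111 and 56.4 CPM and IFI27 at 8.58, 63.9 and 68.5 CPM. ISG15, a ubiquitin-like modifier named after its value was seen, was at 19.3, 21.1 and 21.9 CPM. So the low level in R2 was not shared by every gene of the list: R2 was the highest library for 2 of 20 genes, R4 for 12 and R5 for 6. Over all nuclear genes with a mean of at least 1 CPM, the shares were 32%, 33.3% and 34.7%.

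Ribosomal protein and translation genes were higher in R2 for each of the 20 genes measured. Of all nuclear genes with a mean of at least 1 CPM, 32% were highest in R2. EEF1A1, the elongation factor, was at 357, 207 and 292 CPM, RPL4 at 370, 125 and 313 CPM, RPL5 at 306, 109 and 272 CPM and RPS27A at 321, 126 and 207 CPM. R4 was the lowest library for each of these. Nuclear genes of the respiratory chain differed less, with sums of 621, 451 and 550 CPM and ATP5F1A, a subunit of the ATP synthase, at 146, 112 and 126 CPM. R4 was also the library with the lowest share of mitochondrial counts, 44.4%, and the highest share of nuclear counts.

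R2 has a single sample title where R4 and R5 have a pair each, and whatever this marks cannot be told apart from R2 itself. The labels give no RNA quality. The median log2 difference of the luteal steroidogenesis genes was -0.56 in R2, 0.09 in R4 and 0.37 in R5. Over all nuclear genes with a mean of at least 1 CPM it was -0.10, 0.018 and 0.046. R2 was the highest library for 1 of 17 steroidogenic genes, against 32% of all such nuclear genes. The part of the mitochondrial share, the hemoglobin level and the number of sample titles in these patterns was not tested.

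**Figure D5:**
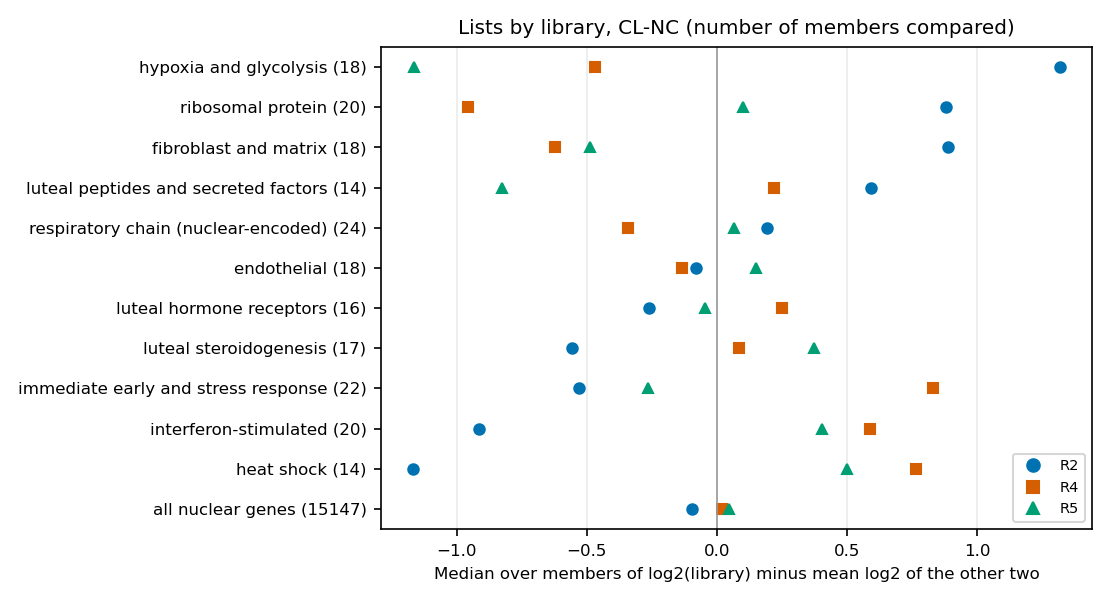
Median over the members of a list of the log2 level in 1 CL-NC library minus the mean log2 level of the other libraries, for genes with a mean of at least 1 CPM, with all nuclear genes in the last row. Hypoxia, ribosomal protein and matrix genes lie to the right in R2, and heat shock, interferon and immediate early genes to the right in R4.

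Antioxidant genes, luteolysis genes, cell cycle genes and long non-coding RNAs complete the description. The detoxifying enzyme GSTA1 was at 269, 385 and 510 CPM, and FTH1, the iron-storing ferritin heavy chain, at 364, 292 and 445 CPM. HMOX1, which degrades heme, was at 334 CPM in R2, 79.6 in R4 and 29.0 in R5, and TXNRD1, thioredoxin reductase, averaged 120 ± 62.4 CPM. The antioxidant list summed to 1641, 1542 and 1681 CPM, the closest sums of all 28 lists. GSTA1 has near relatives that its reads could be shared with.

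Of 20 genes associated with luteolysis, 2 reached a mean of 100 CPM, THBS1 and PTGFR. EDNRB, a receptor for endothelin, was at 38.6, 54.7 and 8.58 CPM. Proliferation genes drew few reads. MKI67, a marker of cycling cells, was at 23.2, 7.04 and 28.1 CPM, PCNA averaged 14.9 ± 2.06 CPM, TOP2A 6.41 ± 4.80 CPM and TYMS 5.23 ± 1.00 CPM. Of the long non-coding RNAs, XIST, which silences the inactive X chromosome, averaged 485 ± 102 CPM, and the imprinted MEG8 was at 739, 511 and 80.7 CPM. H19 and MEG3, from imprinted clusters as well, averaged 143 ± 95.8 and 119 ± 85.8 CPM, with R5 the lowest library for each of the 3 imprinted RNAs.

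The genes with the widest and the narrowest ranges between libraries were also named by rule, among rows without a LOC name. Among genes with a mean of at least 10 CPM, FGF23, a hormone of phosphate balance, had 3073 counts in R2, 0 in R4 and 9 in R5. The proteases TMPRSS5 (2.91, 0.138 and 359 CPM) and PRSS55 (0.752, 58.1 and 1.26 CPM) and the synaptic scaffold gene BSN (1.05, 217 and 20.9 CPM) each had their reads mostly in 1 library. The condensin subunit NCAPH was at 3.71, 149 and 4.6 CPM, SEL1L2 at 4.01, 38.8 and 0.628 CPM, and C16H1orf167 at 0.853, 0.552 and 42.2 CPM. IGFBP3 completed the 8. Genes that peak in a single library went in all directions: FGF23 and IGFBP3 in R2, BSN, PRSS55, SEL1L2 and NCAPH in R4, and TMPRSS5 and C16H1orf167 in R5.

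At the other end, among genes with a mean of at least 100 CPM, the cohesin regulator PDS5B averaged 109.3 ± 0.485 CPM and the receptor phosphatase PTPRM 491 ± 13.1 CPM. PSAP, the precursor of lysosomal saposins, averaged 230 ± 6.64 CPM. The autophagy adaptor TAX1BP1 (118 ± 1.75 CPM), the zinc finger gene ZNF423 (102 ± 1.70), BBX (100.6 ± 2.26) and the row DIAPH2_1, with no match in the reference (152 ± 3.21) had narrow ranges as well.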

How the data were processed

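The deposited corpus luteum file gives raw read counts for each gene in 12 columns, and the 3 CL-NC columns are described. The deposited table held no fractional expected counts, and the other 9 columns were used to set normalization factors. Per the submitters' processing notes, the tools were Trim Galore, cutadapt, STAR, featureCounts and DESeq2, and no version is given. Build and annotation: not given in the sources used here. A stranded kit is named in the labels for endometrial explants, so strand use is not known, and overlapping antisense genes cannot be told apart. The smallest row sum was 36 counts over 12 libraries, so rows with few counts had been removed by the authors. Of the 3 pairs of libraries, 0 had identical columns.

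Rows kept by filterByExpr by group (18939) set TMM factors over 12 libraries with edgeR 4.0.16 (R 4.3.3), and CPM, ranks, ratios and list sums were computed with Python 3.11.15, pandas 2.3.3 and numpy 2.4.6 and drawn with matplotlib 3.10.9. DESeq2 1.42.0 gave alternative size factors. A simulation drew counts for 3 libraries only, so it does not test TMM over 12 libraries, and its outcome is not reported here. Of 19112 rows, 17386 matched a current symbol of RefSeq ARS-UCD2.0, which gave names, gene types and genomic spans only, so the planned ranking per transcript length could not be made. With 1 group there was no test, and no number of the text is a p-value. Intervals and limits from a count of 0 cover counting error only.

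The 28 lists held 471 symbols, of which 420 had a row and the others are not analysed here. The members and lists were chosen with earlier results of these data known. Named genes were the 30 highest by mean CPM, up to 4 highest members of each list, the steroidogenic, receptor and endothelial lists in counts, the 5 given markers, and the 8 genes with the widest (mean of at least 10 CPM) and the 8 with the narrowest range (mean of at least 100 CPM) between libraries, with 1 count added. Rows with a LOC name were left out before the widest and narrowest genes were picked. Other genes were chosen after their values were seen, also where the text does not repeat it. A few genes that this rule names are not reported here.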

Additional observations from a re-analysis of the deposited data

How the results depend on the processing

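Between 29 and 30 of the 30 highest rows stayed in the top 30 under DESeq2 size factors, plain CPM, TMM from the 3 libraries alone and a nuclear denominator, 26 with the median in place of the mean and 26 to 27 with 1 library left out. With CPM taken over nuclear counts without ribosomal RNA, the median of all nuclear genes moved by 1.18 on the log2 scale, and with it the sums of the steroidogenic list to 3478, the endothelial to 6441, the pericyte to 1252, the stromal to 3868, the macrophage to 83.7 and the T and NK cell list to 59.5 CPM. Mitochondrial counts were 115% of nuclear counts, and the top 30 rows held 9.69% of all counts and 20.7% of nuclear counts. The biological coefficient of variation was 0.524 with no filter, 0.524 with DESeq2 size factors, 0.526 with TMM from the 3 libraries and 0.40 to 0.557 with 1 library left out, lowest without R2. Genes with a range of at least 5-fold numbered 1409 at a mean of at least 1 CPM, and 55 (without R2) to 154 with 1 library left out. Of 464 single genes, 438 moved by more than 1 SD with the nuclear denominator, and 0 or 1 with DESeq2 size factors, plain CPM or TMM from the 3 libraries. Levels divided by transcript length were not run, because only genomic spans were at hand. No paired analysis was possible because 1 group is described and no groups are compared. Depth limits the immune and unrelated-tissue markers, many of them under 1 CPM.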

Other observations

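Further genes, chosen after their values were seen, had most of their reads in R2. STC1, a secreted glycoprotein, was at 220 CPM in R2, 41.4 in R4 and 32.1 in R5, and ERO1A, an oxidase of the endoplasmic reticulum, at 375, 67.4 and 46.8 CPM. The chemokine receptors ACKR3 and CXCR4 were at 194, 24.7 and 8.0 CPM and at 71.3, 7.13 and 3.87 CPM. AVP, which encodes vasopressin and is the neighbour of OXT in mammalian genomes, was at 23.9, 1.43 and 2.88 CPM, in the same order of R2 above the rest as OXT. The small heat shock protein gene CRYAB went the other way, with 2.56 CPM in R2, 91.3 in R4 and 87.2 in R5.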
